A study of Mus musculus with 8 samples.

Results

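The nuclear-encoded subunit genes of the respiratory chain and ATP synthase were examined in lymph node (LN) RNA of wild type (WT) mice and mice that lack the histamine H3 receptor (H3RKO). Members were genes whose symbol starts with Ndufa, Ndufb, Ndufc, Ndufs or Ndufv and a digit, with Uqcr, with Cox4 to Cox8 or with Atp5, and Sdha to Sdhd, if they had a probe set of their own. The assembly factors named Ndufaf and the genes Cox7a1 and Cox8b were left out. This gave 76 of 12393 genes on the array: 33 of complex I, 4 of complex II, 8 of complex III, 14 of complex IV and 17 of complex V. Each gene was represented by its brightest probe set. The 76 genes had 145 probe sets of their own, and 43 of them had more than 1. Probe sets that the annotation shares between several genes were not used.

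All animals were C57BL/6 mice, female and male, aged 8 weeks. The H3RKO line, B6.129P2-Hrh3tm1Twl, carries a targeted allele of Hrh3 in every tissue and was kept as a colony apart from the purchased WT mice, so genotype and colony cannot be told apart. Each array was hybridized with RNA of 1 pool of LN from at least 3 mice. Untreated LN were measured in 2 pools per genotype. LN taken 24 h after an injection of complete Freund's adjuvant (CFA), or of CFA with pertussis toxin (CFA+PTX), were measured in 1 pool per genotype each. The CFA+PTX arrays are titled PTX alone, and their descriptions name both agents. The study asked whether H3R signaling sets gene expression in LN at baseline and early after these stimuli.

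The respiratory chain sits in the inner mitochondrial membrane. Complex I takes electrons from NADH and complex II from succinate. Ubiquinone carries them to complex III and cytochrome c from there to complex IV, which reduces oxygen. Complexes I, III and IV pump protons, and complex V, the ATP synthase, makes ATP as protons flow back. Most subunits are encoded in the nucleus and imported. The transcription factors NRF1, GABP and YY1 are known to act on many of their promoters. Resting lymphocytes depend largely on oxidative phosphorylation, and activated ones raise glycolysis as well.

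Since these factors act on many such promoters, the members' promoters were searched for the core motifs of the 3 factors. RefSeq start sites on GRCm38.p6 gave windows of 300 bases, from 250 before to 50 after a start, for 62 of the 76 members (67 windows). GCGCNTGCG, from the core of the NRF1 motif, occurred on either strand in 32.8% of the members' windows and in 6.31% of all 32851 windows. CCGGAAG, bound by GABP and other ETS factors, occurred in 25.4% and 8.86%, and AAGATGGC, of YY1, in 13.4% and 2.75%. TATAAA occurred in 10.4% and 13.6%. At least 1 of the first 3 motifs was in 59.7% of the members' windows and 16% of all windows. Although CCGGAAG and AAGATGGC can share letters, matches to different motifs overlapped in 0 of the members' windows. The last 170 bases before the start are shown for 2 constitutive complex IV genes with matches, Cox6a1 (chr5:115348959-115349128) and Cox6b1 (chr7:30626115-30626284), and for the members at either end of the CFA+PTX comparison below, Ndufa4 (chr6:11907451-11907620) and Cox7a2l (chr17:83514334-83514503). All 4 genes lie on the minus strand, and each sequence is written 5′ to 3′ along the gene, with motif matches in capitals.
Cox6a1: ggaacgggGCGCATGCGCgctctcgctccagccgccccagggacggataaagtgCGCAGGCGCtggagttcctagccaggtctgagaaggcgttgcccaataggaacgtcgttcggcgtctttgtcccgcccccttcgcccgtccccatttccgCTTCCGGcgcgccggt
Cox6b1: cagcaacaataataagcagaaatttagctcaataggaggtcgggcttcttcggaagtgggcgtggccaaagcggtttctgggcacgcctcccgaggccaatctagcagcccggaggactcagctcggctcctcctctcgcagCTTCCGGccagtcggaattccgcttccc
Ndufa4: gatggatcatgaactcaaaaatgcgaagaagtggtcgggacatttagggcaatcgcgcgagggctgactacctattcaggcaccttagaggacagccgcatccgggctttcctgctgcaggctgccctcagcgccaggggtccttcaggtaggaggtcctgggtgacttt
Cox7a2l: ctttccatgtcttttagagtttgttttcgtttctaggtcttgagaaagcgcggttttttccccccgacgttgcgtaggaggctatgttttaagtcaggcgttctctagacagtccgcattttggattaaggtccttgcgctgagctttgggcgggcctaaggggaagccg
Cox6a1 holds 3 matches to GCGCNTGCG, of which the first 2 overlap on opposite strands, and 1 to CCGGAAG in reverse, and Cox6b1 holds 1 to CCGGAAG in reverse. The whole windows of Ndufa4 and Cox7a2l hold none of the 3 motifs. A match or its absence describes the letters only.

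Values are log2 RMA signals, so a difference of 1 is a 2-fold change. A probe set's brightness also depends on its probes, and levels are therefore compared between arrays and not between genes. The members' signals hardly varied. Over the 8 arrays the range of a member had a median of 0.26, against 0.30 for all genes, and the members' median level had an SD of 0.050 between the 2 untreated pools of a genotype. The mean signal was above 10 for 68 members and at or below 10 for 8, namely Ndufa5, Ndufb1, Ndufs4, Cox4i2, Cox6a2, Cox6b2, Cox7c and Cox8c. Dim probe sets hold a larger share of background, and Cox4i2, Cox6b2 and Cox7c among these varied from array to array with no order by group.

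**Figure D1:**
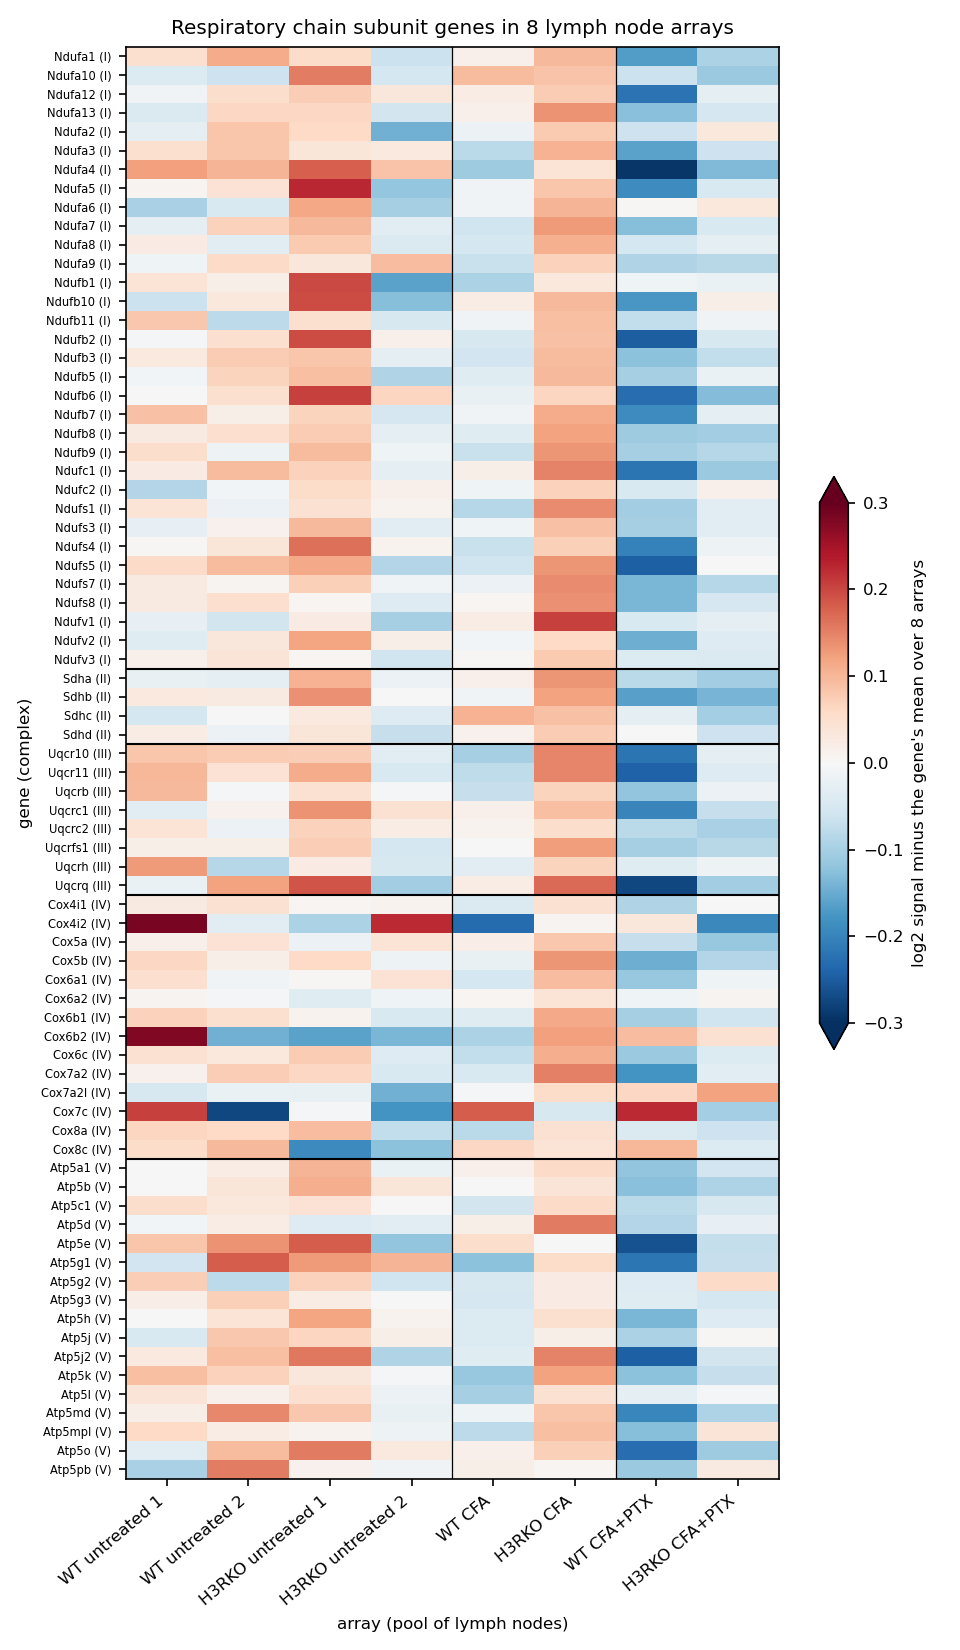
Log2 signal of each of the 76 subunit genes (vertical axis, complex in parentheses) minus that gene's mean over the 8 arrays, by array (horizontal axis). Colours end at 0.3 in either direction. The WT CFA+PTX column is mostly blue and the H3RKO CFA column mostly red, and Cox7a2l and the dim genes Cox4i2, Cox6b2, Cox7c and Cox8c depart from the other genes.

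The arrays were those of LN, with mean log2 signals of 11.37 to 11.68 for 10 B cell genes and 10.67 to 10.93 for 15 T cell genes. Markers of neighbouring tissues were measured as well. The mean of 8 brown fat genes ran from 6.42 in WT CFA+PTX and 6.94 in WT untreated 2 to 8.42 in WT CFA and 8.80 in H3RKO CFA. Their defining gene Ucp1 was between 7.58 and 11.34 and was lowest and highest in the same 2 arrays. The mean of 12 salivary and lacrimal gland genes was 5.59 in WT CFA+PTX, 9.23 in WT untreated 1 and 12.06 to 12.83 elsewhere. The mean of 16 white fat genes ran from 9.86 in H3RKO CFA+PTX and 9.93 in WT CFA to 10.61 in WT untreated 1. Skeletal muscle genes were at 5.84 to 6.44, 17 neutrophil genes at 7.25 in WT untreated 1 to 8.24 in H3RKO CFA+PTX, 12 macrophage genes at 10.98 to 11.32 and 25 cell cycle genes at 8.83 in WT CFA to 9.36 in WT untreated 2. The Hrh3 probe set read 6.56 to 6.66 in the 4 WT arrays and 7.20 to 7.29 in the 4 H3RKO arrays. It was not placed relative to the deleted part and so does not check the labels. In bulk RNA, fewer cells of a kind and less RNA per cell cannot be told apart, here and in every result that follows. The pools of a group were not described as separate cohorts, so p-values measure the spread between these arrays and not between cohorts. For genotype differences within a treatment and for interactions, that spread comes from the untreated pairs. For the other comparisons it also includes any change of the genotype difference between treatments. Where CFA and CFA+PTX are joined, it includes the difference between them as well.

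The first question was whether adjuvant with pertussis toxin shifted the subunit genes. In CFA+PTX LN, 68 of the 76 members had a lower estimate than in untreated LN, in an additive linear model of genotype and treatment (limma). The median difference was -0.11, against 0.0066 over all genes, of which 47.8% were lower. No member passed an adjusted p under 0.05, and neither did any other gene (0% of 12393). At an unadjusted p under 0.05, 11 members were lower and 0 higher, a share of 14.5% beside 5.54% of all genes lower. Both directions counted, the share of all genes was 13.1%. The same threshold gave 22 members (28.9%, beside 12.1% of all genes) in the same additive model without moderation, 21 of them lower. It gave 29 members (38.2%, beside 14.7%) with an intensity trend and robust fitting, 28 of them lower. None of these members passed an adjusted p under 0.05 in either version, while 29 genes outside the members did so with the trend.

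Ndufa4, first counted as a complex I subunit and later placed with cytochrome c oxidase, had the lowest estimate. Its log2 signal was 11.65 and 11.63 in the WT untreated arrays, 11.70 and 11.61 in the H3RKO untreated arrays, 11.42 in WT CFA, 11.57 in H3RKO CFA, 11.23 in WT CFA+PTX and 11.39 in H3RKO CFA+PTX. All 4 injected arrays lay below all 4 untreated ones, which held for no other member and for 2.93% of all genes. The CFA+PTX estimate was -0.33 ± 0.07 (SE), with a 95% interval of -0.49 to -0.17 and adjusted p = 0.202. Ndufb6, an accessory subunit of the membrane arm of complex I, followed with -0.26 ± 0.07 (adjusted p = 0.235). It read 11.04, 11.09, 11.25 and 11.11 in untreated LN and 10.81 and 10.91 after CFA+PTX, so these groups did not overlap. On its other, dimmer probe set they did, with 9.81 to 10.12 in untreated LN and 9.55 and 9.90 after CFA+PTX.

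Sdhb, the iron-sulfur subunit of complex II, read 11.77 in both WT untreated arrays, 11.88 and 11.75 in the H3RKO ones, and 11.58 and 11.61 after CFA+PTX in WT and H3RKO. Its estimate was -0.20 ± 0.07 (adjusted p = 0.317). Uqcrc1, a core protein of complex III, was at -0.17 ± 0.06 (adjusted p = 0.327). In complex V, Atp5g1, 1 of 3 genes for the membrane ring subunit c, was at -0.23 ± 0.08 (adjusted p = 0.329). The other 2 genes of that subunit, Atp5g2 and Atp5g3, had ranges of 0.15 and 0.12 over all arrays. Atp5o, the stalk subunit that confers oligomycin sensitivity, read 11.58, 11.71, 11.77 and 11.64 in untreated LN and 11.39 and 11.51 after CFA+PTX. Its estimate was -0.23 ± 0.07 (adjusted p = 0.291). Atp5b, the catalytic beta subunit, was at -0.15 ± 0.06 (adjusted p = 0.371). Atp5e, the epsilon subunit of the rotor, had the third lowest estimate, -0.24 ± 0.10 (adjusted p = 0.412), but its arrays overlapped, with 11.82 in H3RKO untreated 2 and 11.86 in H3RKO CFA+PTX. The remaining members at an unadjusted p under 0.05 were Ndufb2, Ndufc1, Ndufa12 and Atp5md, with estimates between -0.21 and -0.16.

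**Figure D2:**
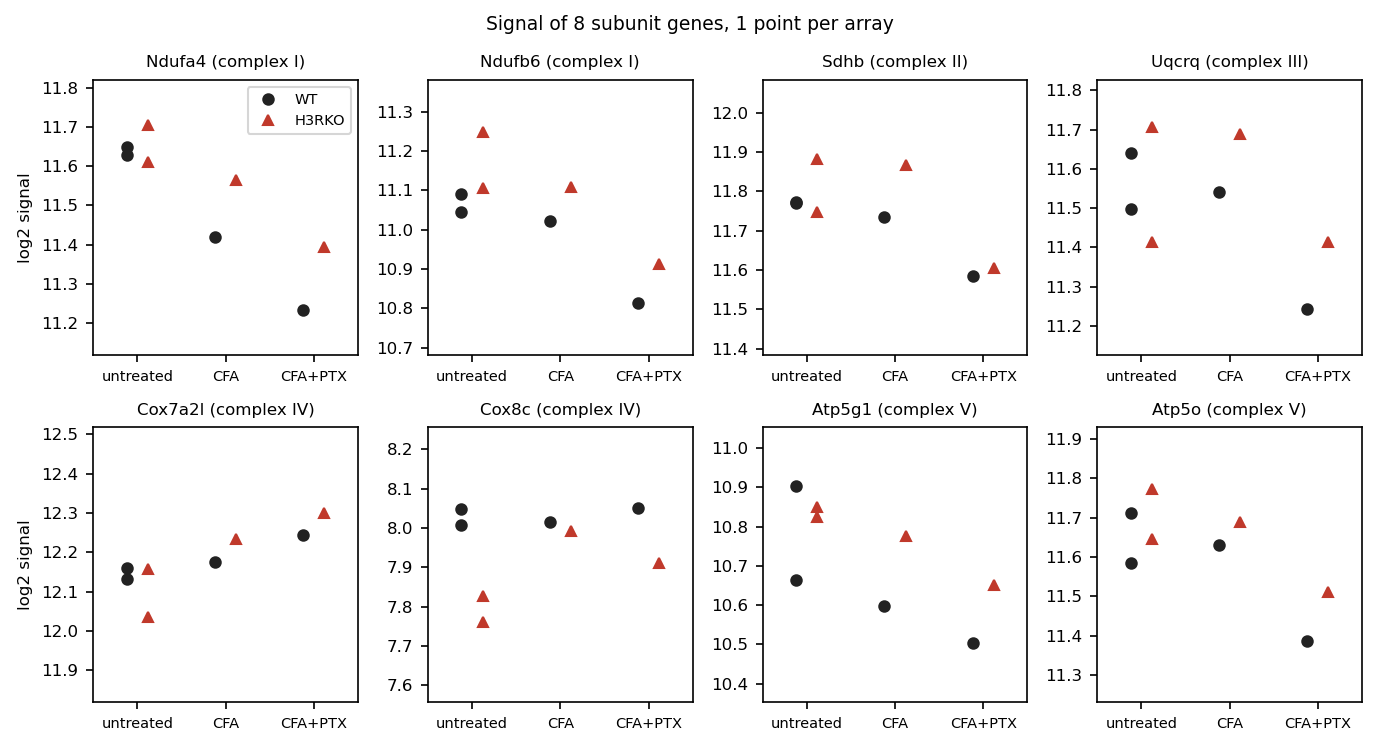
Log2 signal (vertical axis, a span of 0.7 in each panel) of 8 subunit genes in each array, by treatment, with circles for WT and triangles for H3RKO. Ndufa4 and Sdhb are lower in both CFA+PTX arrays than in all untreated arrays, and Cox7a2l is higher in both.

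Counted without a model, both CFA+PTX arrays lay below all 4 untreated arrays for 40 of 76 members (52.6%), against 11.3% of all genes. They were 19 of 33 genes of complex I, 2 of 4 of complex II (Sdha and Sdhb), 4 of 8 of complex III, 6 of 14 of complex IV and 9 of 17 of complex V. The share was 40% to 43.8% in the lists of mitochondrial ribosome, citric acid cycle, white fat, B cell and cell cycle genes. It was 0% to 2.08% for macrophage, gland, biogenesis regulator and cytosolic ribosome genes, and between these for the other lists. Both CFA+PTX arrays lay below all 6 other arrays for 26 members (34.2%), against 6.41% of all genes. WT CFA+PTX was the lowest array of all 8 for 52 members, a position it held for 15.7% of all genes. With that array left out, H3RKO CFA+PTX alone lay below the untreated arrays for 42 members (55.3%, beside 21.2% of all genes), and the median difference from untreated LN was -0.095. With H3RKO CFA+PTX left out instead, WT CFA+PTX alone lay below them for 58 members (76.3%, beside 22.5%). These alternatives were chosen after the data were seen.

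Cox7a2l ran the other way. This relative of the complex IV subunit Cox7a2 is described as joining complexes III and IV into supercomplexes, a role not measured in these mice. It read 12.13 and 12.16 in WT untreated, 12.16 and 12.04 in H3RKO untreated, 12.18 and 12.23 after CFA and 12.24 and 12.30 after CFA+PTX in WT and H3RKO. It was the only member with both CFA+PTX arrays above all untreated arrays, a pattern of 12% of all genes. The estimate was 0.15 ± 0.07, with an interval of -0.0080 to 0.31 and adjusted p = 0.426. Its other 2 probe sets gave 0.13 and 0.12. Cox7a2 itself was at -0.13 ± 0.08. The next highest estimates were those of Cox7c and Cox6b2, at 0.12 ± 0.14 and 0.11 ± 0.14, both on dim probe sets.

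Within the complexes, the median difference between CFA+PTX and untreated LN was -0.12 in complex I, -0.076 in complex II, -0.15 in complex III, -0.086 in complex IV and -0.11 in complex V. In complex IV, 9 of 14 genes were lower, and 4 of the 5 that were not were the tissue-restricted or dim genes Cox6a2, Cox6b2, Cox7c and Cox8c. The muscle and heart isoform Cox6a2 had the narrowest range of all members, from 8.45 to 8.53. The constitutive partners Cox4i1, Cox6a1 and Cox6b1 were at -0.068 ± 0.063, -0.085 ± 0.065 and -0.099 ± 0.072, each with both CFA+PTX arrays below the untreated ones. The margins were small, with H3RKO CFA+PTX at 13.362 and WT untreated 2 at 13.363 for Cox6a1. For Cox4i1, H3RKO CFA+PTX was at 12.925 and H3RKO untreated 1 at 12.930. The groups overlapped on the other probe set of Cox6b1 and not on that of Cox6a1. The lung and hypoxia isoform Cox4i2 had the widest range in the complex, 0.52, with 7.36 in WT untreated 1 and 6.85 in WT CFA. In complex II, the flavoprotein Sdha was at -0.10 ± 0.07 and the membrane anchors Sdhc and Sdhd at -0.049 ± 0.062 and -0.023 ± 0.065. Elsewhere the range was widest for Ndufa4 (0.47), Sdhb (0.30), Uqcrq (0.46) and Atp5e (0.44) and narrowest for Ndufv3 (0.14), Sdhd (0.14), Uqcrc2 (0.17) and Atp5g3 (0.12).

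**Figure D3:**
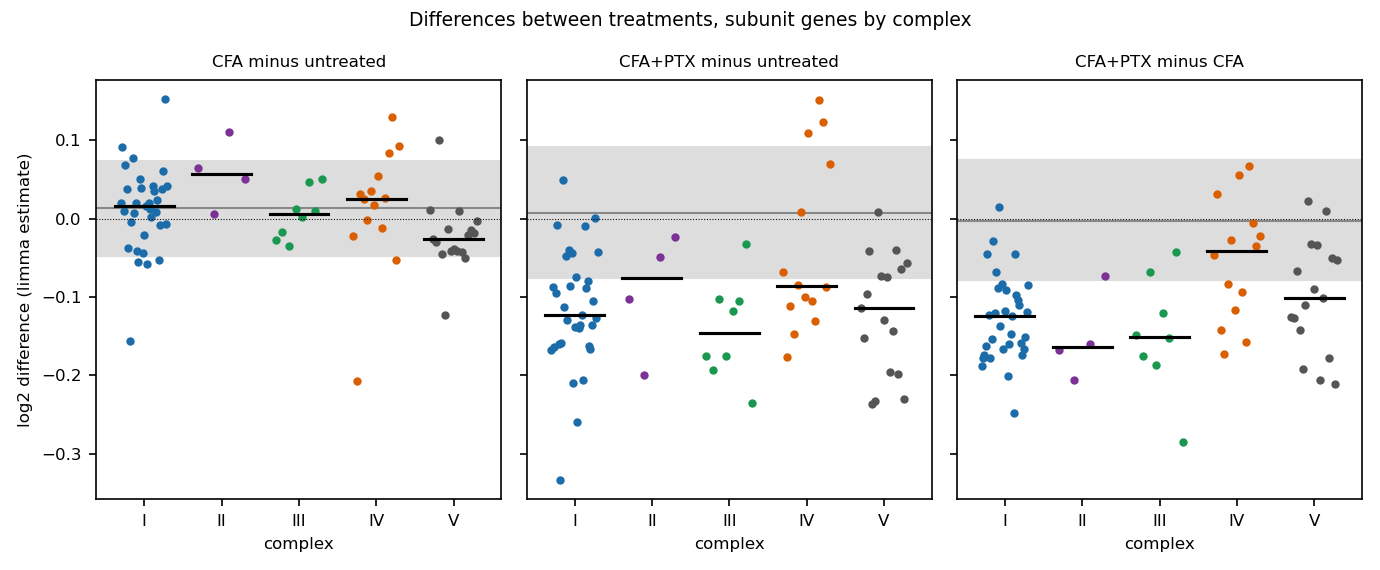
Estimated log2 difference (vertical axis) of each subunit gene for 3 treatment comparisons, by complex (horizontal axis), 1 point per gene with the median of each complex as a bar. The grey band and line give the interquartile range and the median of all genes. After CFA+PTX the complexes' medians lie between -0.15 and -0.076, below the line of all genes.

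Genes of related pathways were described in the same comparison. Of 74 genes of the mitochondrial ribosome, 65 were lower after CFA+PTX (median -0.11, 12 lower and 1 higher at an unadjusted p under 0.05). Of 16 citric acid cycle genes 13 were lower (median -0.13), with Idh3a, a subunit of isocitrate dehydrogenase, at -0.29 ± 0.08 and Suclg1, of succinyl-CoA ligase, at -0.28 ± 0.08. Cycs, cytochrome c, led the electron carriers and left-out subunits, 12 of 13 of which were lower, with -0.35 ± 0.08. Of 32 assembly factors 24 were lower (median -0.085), and the complex III factor Uqcc2 was at -0.29 ± 0.07. None of these genes passed an adjusted p under 0.05 (limma), and 4, 2 and 4 genes of the last 3 groups were lower at an unadjusted p under 0.05. At that threshold 5.54% of all genes were lower, and 13.1% passed in either direction.

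Outside the mitochondrion and among the regulators the medians varied. Of 14 glycolysis genes 10 were lower (median -0.11), 4 of them at an unadjusted p under 0.05 (limma), beside 5.54% of all genes. The aldolase Aldoc was at -0.67 ± 0.10 (limma, adjusted p = 0.122) and the hexokinase Hk2 at -0.30 ± 0.10. Of 11 regulators of mitochondrial biogenesis 5 were lower (median 0.0056), with the coactivator gene Ppargc1b at 0.27 ± 0.09 and Nrf1 at 0.19 ± 0.11. Of 48 cytosolic ribosome genes 16 were lower (median 0.012).

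Markers of other cells differed between the same arrays. WT CFA+PTX, the lowest array for most members, had the lowest brown fat mean (6.42), the lowest gland mean (5.59), the lowest B cell mean (11.37) and the highest macrophage mean (11.32). Cox7a1 and Cox8b, the muscle and brown fat isoforms, were there at 5.25 and 8.43 and ran up to 8.24 and 10.74 in H3RKO CFA. In H3RKO CFA+PTX, however, the brown fat mean was 7.67 and the gland mean 12.55, both inside the range of the untreated arrays (6.94 to 8.25 and 9.23 to 12.83), and the B cell mean was 11.49, below the 11.54 to 11.61 of untreated LN. All 16 white fat genes had a lower estimate after CFA+PTX (median -0.42), and their means of 10.02 in WT and 9.86 in H3RKO lay below the 10.09 to 10.61 of untreated LN. Of the 25 cell cycle genes 24 were lower (median -0.26), with means of 8.88 and 8.89 beside 8.89 to 9.36 in untreated LN. Both lists were low after CFA as well, with white fat means of 9.93 and 10.31 and cell cycle means of 8.83 and 8.84. All 10 B cell genes were lower after CFA+PTX (median -0.10) and 9 of 12 macrophage genes higher (median 0.17). The part of these cells in the differences was not tested.

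**Figure D4:**
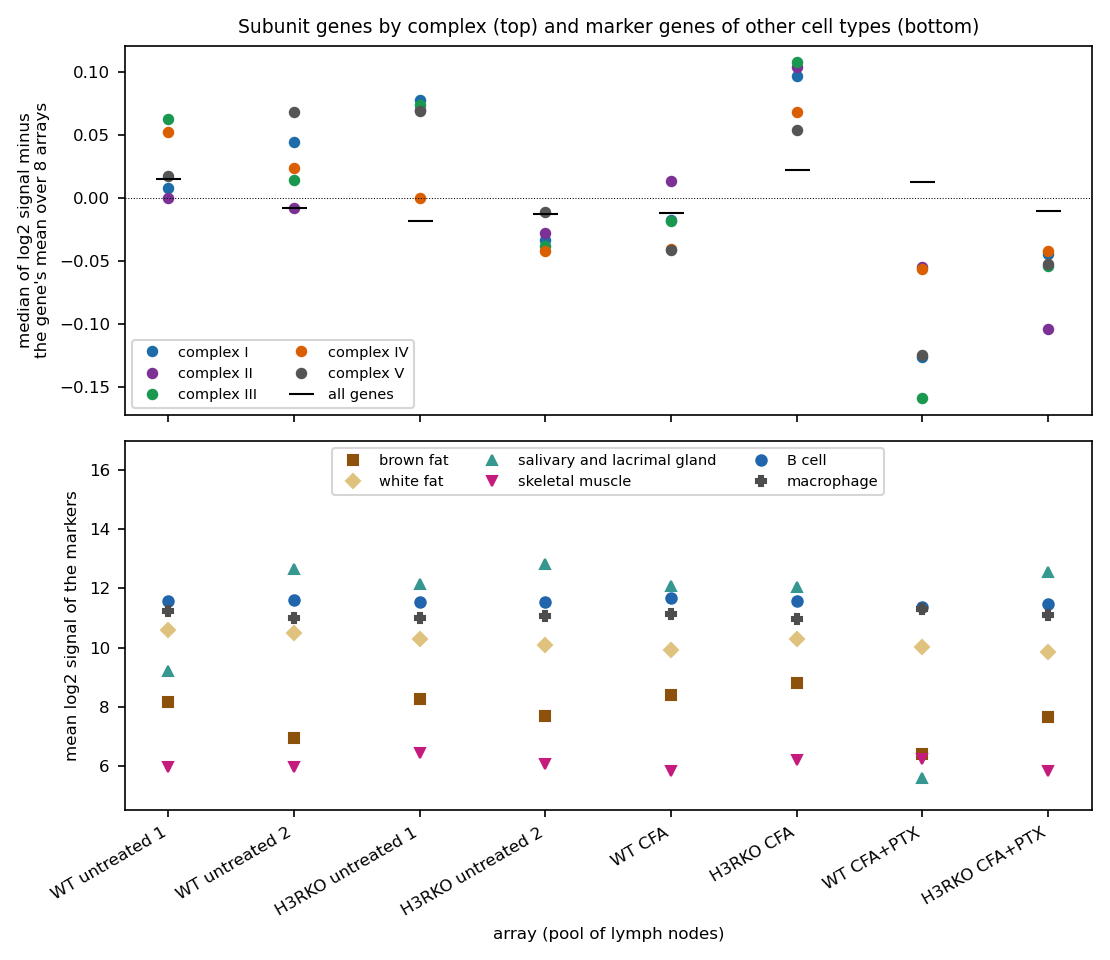
Top, median over the genes of each complex, and over all genes, of the log2 signal minus each gene's mean over the 8 arrays. Bottom, mean log2 signal of marker genes of other cell types in the same arrays (horizontal axis). The complexes and the brown fat genes are both lowest in WT CFA+PTX, apart from complex II, and highest in H3RKO CFA, apart from complex V. The brown fat mean is next lowest in WT untreated 2 (6.94), where the median over all members is 0.035. It is next highest in WT CFA (8.42), where that median is -0.020.

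The second question was what CFA gave without the toxin. Between CFA and untreated LN the members split, with 43 higher and 33 lower, a median of 0.0093 and no call at an adjusted p under 0.05 (0% of all genes). No member reached an unadjusted p under 0.05 (6.08% of all genes), and 2 did so in each of the other 2 versions of the test (2.63%, beside 6.04% of all genes without moderation and 6.36% with a trend). The lowest estimates were those of Cox4i2 (-0.21 ± 0.14), Ndufa4 (-0.16 ± 0.07) and Atp5g1 (-0.12 ± 0.08). The highest were those of Ndufv1, the NADH-binding flavoprotein (0.15 ± 0.07), Cox7c (0.13 ± 0.14) and Sdhc (0.11 ± 0.06). Both CFA arrays lay below all untreated arrays for Ndufa4 alone (6.52% of all genes) and above them for Sdhc and Cox7a2l (8.7%). The median depended on which array was kept, with -0.044 without H3RKO CFA, -0.022 without H3RKO untreated 2 and 0.065 without WT CFA. Here all 8 brown fat genes had a higher estimate (median 0.78), and all 25 cell cycle genes (median -0.33) and 13 of 16 white fat genes (median -0.20) a lower one.

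CFA+PTX and CFA LN, which use the same CFA+PTX arrays again, differed by a median of -0.12 with 70 of 76 members lower (51.2% of all genes), and without H3RKO CFA by -0.065. No gene passed an adjusted p under 0.05 (0%). At an unadjusted p under 0.05, 6 members were lower (7.89%, beside 2.65% of all genes), and in either direction the share of all genes was 5.99%. In the version without moderation 15 members passed, all lower (19.7%, beside 6.29% of all genes), and with a trend 20, all lower (26.3%, beside 6.7%). Uqcrq, a small subunit of complex III, had the lowest estimate, -0.29 ± 0.12, and read 11.54 and 11.69 after CFA and 11.24 and 11.42 after CFA+PTX. Ndufc1 (-0.25 ± 0.08) and Atp5o (-0.21 ± 0.08) followed, with Ndufb6, Sdhb and Uqcrc1 the other 3. The highest estimates were those of Cox7a2l (0.067 ± 0.078), Cox6b2 (0.055 ± 0.159) and Cox4i2 (0.032 ± 0.161). Both CFA+PTX arrays lay below both CFA arrays for 39 members (20.6% of all genes), among them all 4 of complex II and 3 of 14 of complex IV. All 8 brown fat genes (median -1.53) and 13 of 16 white fat genes (median -0.13) were lower in the same comparison. All 12 macrophage genes were higher (median 0.17). All 12 gland genes had a lower estimate through WT CFA+PTX, where their mean was 5.59. In H3RKO CFA+PTX that mean was 12.55, above the 12.08 and 12.06 after CFA in WT and H3RKO. The part of these cells was not tested.

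With CFA and CFA+PTX in 1 group, 63 members were lower in injected than in untreated LN. Their median was -0.055, or -0.023 without WT CFA+PTX and -0.091 without H3RKO CFA. At an unadjusted p under 0.05, 2 members were lower (2.63%, beside 5.01% of all genes lower and 10.6% in either direction), and 3 and 4 passed in either direction in the versions without moderation and with a trend (3.95% and 5.26%, beside 10.2% and 11.3% of all genes). The 2 were Ndufa4 (-0.24 ± 0.07, adjusted p = 0.302) and Atp5g1 (-0.18 ± 0.07, adjusted p = 0.428), and Cox4i2 stood between them at -0.19 ± 0.11. The highest estimates were those of Cox7c (0.13 ± 0.11), Cox7a2l (0.12 ± 0.05) and Cox6b2 (0.082 ± 0.106). No member passed an adjusted p under 0.05, as 0.0484% of all genes did. Of the markers, 15 of 16 white fat genes (median -0.30) and all 25 cell cycle genes (median -0.29) were lower in injected LN.

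The third question was whether loss of H3R altered the subunit genes. In untreated LN, 2 arrays against 2, 33 members were higher and 43 lower in H3RKO, with a median of -0.013 against -0.018 over all genes. The median was 0.040 without H3RKO untreated 2 and -0.050 without H3RKO untreated 1. The study called genes at a fold change over 2 with an unadjusted p under 0.05. By this criterion 0 of 76 members were called, beside 0.161% of all genes, and at an adjusted p under 0.05 no gene was called (0%). All 76 intervals lay within a 2-fold change in either direction. Both H3RKO arrays lay above both WT arrays for 5 members (12.5% of all genes), namely Ndufb6, Ndufc2, Sdha, Uqcrc1 and Atp5b, and below them for 11 (20.6%). In complex IV, 13 of 14 genes had a lower estimate. In the same comparison 15 of 16 white fat genes (median -0.29) and 24 of 25 cell cycle genes (median -0.18) were lower, and 15 of 17 neutrophil genes (median 0.60) and all 12 gland genes (median 1.68) higher. The gland difference rested on WT untreated 1, with a mean of 9.23. WT untreated 2 was at 12.65, between the 12.15 and 12.83 of H3RKO.

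Cox8c, a testis isoform, was the 1 member at an unadjusted p under 0.05 in each version of the test, beside 3.2% of all genes lower at that threshold. In either direction the share of all genes was 4.9%, or 4.57% without moderation and 4.48% with a trend. It read 8.01 and 8.05 in WT and 7.76 and 7.83 in H3RKO, a difference of -0.23 ± 0.09 (adjusted p = 0.916). Cox6b2, also a testis isoform, was at -0.22 ± 0.15 and rested on WT untreated 1, which read 6.80 where the other 3 untreated arrays read 6.36 to 6.39. Ndufa1 was at -0.085 ± 0.092. The highest estimates were those of Ndufb6 (0.11 ± 0.09), Ndufa10 (0.10 ± 0.10) and Uqcrc1 (0.10 ± 0.09).

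After CFA, 1 array against 1, H3RKO was higher for 70 of 76 members, with a median of 0.12 against 0.036 over all genes, 62.3% of which were higher. With 1 pool per group there is no spread of its own here. The SE rests on the untreated pools, on the assumption that the injected ones varied alike. By the study's criterion 0 members were called (0.145% of all genes), at an adjusted p under 0.05 also 0 (0% of all genes), and at an unadjusted p under 0.05 0 (2.35% of all genes). In the version without moderation 6 members passed the last threshold (7.89%, beside 3.72% of all genes) and with a trend 2 (2.63%, beside 2.05%), all of them higher in H3RKO. Uqcr10, a small subunit of complex III, read 11.36 in WT and 11.61 in H3RKO, the largest difference (0.25 ± 0.12). Cox4i2 was at 0.24 ± 0.22 and Atp5k, a subunit of the ATP synthase membrane part, at 0.23 ± 0.12. The lowest were Cox7c (-0.23 ± 0.25), Atp5e (-0.056 ± 0.174) and Cox8c (-0.021 ± 0.121). H3RKO CFA was the highest of the 8 arrays for 35 members, a position it held for 15.0% of all genes, and it also had the highest brown fat mean. Ucp1 read 11.06 in WT CFA and 11.34 in H3RKO CFA. Between these arrays 7 of 8 brown fat genes (median 0.63), all 16 white fat genes (median 0.35), 22 of 23 skeletal muscle genes (median 0.17) and 14 of 17 neutrophil genes (median 0.13) were higher in H3RKO, and 9 of 10 B cell genes (median -0.095) and 10 of 12 macrophage genes (median -0.11) lower. The white fat mean was 9.93 in WT and 10.31 in H3RKO. Their part in the difference was not tested.

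After CFA+PTX, again 1 array against 1, H3RKO was higher for 62 of 76 members, with a median of 0.068 against -0.028 over all genes, 41.5% of which were higher. The count of calls was 0 by the study's criterion (0.347% of all genes), 0 at an adjusted p under 0.05 (0%) and 0 at an unadjusted p under 0.05 (3.36%), with 2 in the version without moderation (2.63%, beside 4.08% of all genes) and 0 with a trend (3.23% of all genes). Ndufs5 (0.24 ± 0.15), Uqcr11 (0.20 ± 0.14) and Ndufb2 (0.20 ± 0.14) were the highest, and Cox7c (-0.33 ± 0.25), Cox4i2 (-0.23 ± 0.22) and Cox8c (-0.14 ± 0.12) the lowest. Complex II was the exception among the complexes, with 3 of 4 genes lower in H3RKO and a median of -0.043. Between these 2 arrays the brown fat mean differed by more than in the other treatments, 6.42 in WT and 7.67 in H3RKO, and the gland mean was 5.59 and 12.55. Of 17 neutrophil genes 15 were higher in H3RKO (median 0.96, with means of 7.44 and 8.24), as were 8 of 10 B cell genes (median 0.12). Of 12 macrophage genes 11 were lower (median -0.26), of 23 skeletal muscle genes 21 (median -0.19) and of 16 white fat genes 11 (median -0.13). Their part in the difference was not tested.

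**Figure D5:**
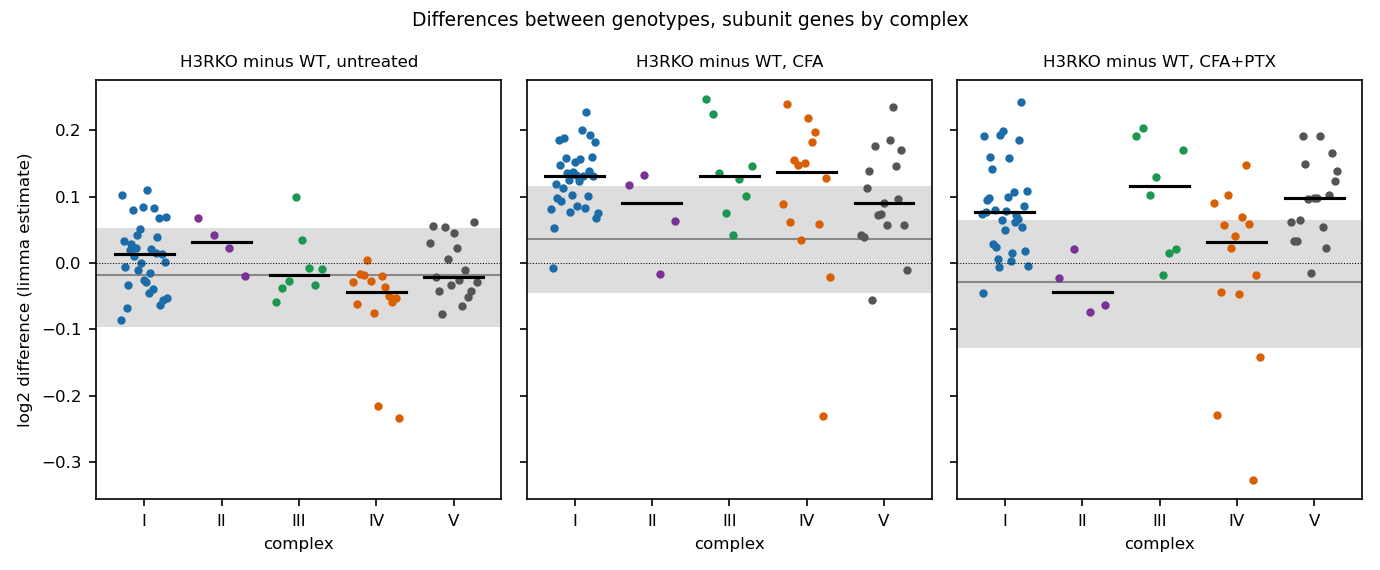
Estimated log2 difference between H3RKO and WT (vertical axis) of each subunit gene in untreated, CFA and CFA+PTX LN, by complex (horizontal axis), 1 point per gene with the median of each complex as a bar. The grey band and line give the interquartile range and the median of all genes. The members' medians are -0.013, 0.12 and 0.068 in the 3 panels, and none of the points reaches a 2-fold change.

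The genotype difference itself was compared between treatments through the interaction terms. For CFA against untreated LN 0 members were called at an adjusted p under 0.05 (0% of all genes) and 0 at an unadjusted p under 0.05 (4.36%). At the latter 6 members passed without moderation (7.89%, beside 4.81% of all genes) and 2 with a trend (2.63%, beside 3.99%). The median was 0.13, with Cox6b2 (0.43 ± 0.26), Uqcr10 (0.31 ± 0.15) and Cox4i2 (0.30 ± 0.27) highest and Cox7c (-0.17 ± 0.30), Ndufa10 (-0.11 ± 0.18) and Sdhc (-0.039 ± 0.149) lowest. For CFA+PTX against untreated LN the counts were 0 of 76 (0% of all genes) and 0 (2.45%), with 3 members without moderation (3.95%, beside 3.64%) and 0 with a trend (2.33% of all genes). The median was 0.075, or 0.022 without H3RKO untreated 2, with Ndufs5 (0.31 ± 0.18), Atp5e (0.27 ± 0.21) and Uqcr10 (0.25 ± 0.15) highest and Cox7c (-0.27 ± 0.30), Cox4i2 (-0.17 ± 0.27) and Ndufa10 (-0.15 ± 0.18) lowest. The interval of Cox6b2 in the first and of Cox7c in the second reached past a 2-fold change, so for these genes even that size could not be told from none.

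Over all treatments, 4 arrays against 4, 65 members were higher in H3RKO, with a median of 0.046 against -0.0071 over all genes. It was 0.021 without either CFA array and 0.073 without H3RKO untreated 2. No gene passed an adjusted p under 0.05 (0%). At an unadjusted p under 0.05 there was 1 member, Cox8c (-0.16 ± 0.06, adjusted p = 0.999), beside 2.55% of all genes lower and 3.84% in either direction. In each of the other versions of the test 3 members passed in either direction (3.95%, beside 4.59% of all genes without moderation and 3.93% with a trend). All 4 H3RKO arrays of Cox8c (7.76 to 7.99) lay below all 4 WT arrays (8.01 to 8.05), as did 1.03% of all genes. All 4 H3RKO arrays lay above all 4 WT arrays for Ndufc2, an accessory subunit of complex I, with 11.63 to 11.68 against 11.52 to 11.60, as did 0.831% of all genes. On the other probe set of Ndufc2 the genotypes overlapped, with 11.46 to 11.52 in H3RKO and 11.37 to 11.57 in WT. The highest estimates were those of Ndufb2 (0.13 ± 0.06), Ndufs4 (0.11 ± 0.06) and Atp5g1 (0.11 ± 0.07), and Cox7c (-0.17 ± 0.11) and Cox6b2 (-0.065 ± 0.112) were lowest with Cox8c. All 76 intervals lay between -0.43 and 0.28, short of a 2-fold difference. All 17 neutrophil genes (median 0.57) had a higher and all 12 macrophage genes (median -0.11) a lower estimate in H3RKO over the same arrays.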

How the data were processed

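RNA of LN pools was hybridized to single-colour Affymetrix mouse arrays, 8 in all. The authors ran the Robust Multichip Average (RMA), which corrects background, normalizes and combines the probes of a set, and the deposited values are log2 signals. They were used unchanged, without 64 control probe sets. GEO's platform table paired 20380 of 22626 probe sets with 1 gene, 691 with several and 1555 with none. Differences were fitted with limma 3.58.1 in R 4.3.3 over all probe sets with Benjamini-Hochberg adjustment. A model with a mean per group (2 residual and 3.58 prior degrees of freedom) gave the genotype differences within a treatment and the interactions, and additive models of genotype and treatment, or of genotype and injection, gave the rest. The fits were tested on simulated data. The number of arrays limits the precision.

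The members and lists were chosen with earlier results of these data known, and the gland genes were picked from them. Named were the 3 highest and 3 lowest estimates of each comparison, members at an unadjusted p under 0.05 or with groups apart, the widest and narrowest ranges per complex, isoforms, complex II, and up to 4 genes per other list, the last and those with groups apart partly chosen after their values were seen. Shares of all genes use the brightest probe set of each of 12393 genes. Lists were described and not tested. The alternatives were other moderation, normalization, probe sets, a filter on dim probe sets, a replicate block, a fold change over 1.5 and each array left out.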

Additional observations from a re-analysis of the deposited data

How the results depend on the processing

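The count of members called was 0 in all 10 comparisons under every setting that applied to them. Among these were the replicate block, centring on array medians, quantile normalization again and each array left out. Leaving out an injected array removed the genotype and interaction comparisons of its treatment. A fold change over 1.5 applied only to H3RKO against WT within a treatment. The largest member folds there were 1.18 in untreated LN, 1.19 after CFA and 1.25 after CFA+PTX, so it could call no member. The members' median kept within the spread between untreated pools (0.050) except when 1 array was left out. Left out in turn, the arrays gave medians of -0.050 to 0.040 for H3RKO against WT in untreated LN, 0.022 to 0.11 for the interaction of CFA+PTX with genotype, -0.044 to 0.065 for CFA against untreated and -0.16 to -0.065 for CFA+PTX against CFA. The medians for untreated LN and for CFA changed sign. The cause was not tested. The count of 40 members below in both CFA+PTX arrays (11.3% of all genes) was 30 after centring on array medians (11.2%), 38 after quantile normalization (12%), 28 with the mean of all probe sets of a gene (10.9%) and 40 of 72 without probe sets that may cross-hybridize (11.3%). With 1 array left out it was 40 to 58, beside 14.1% to 22.5% of all genes, whose share also rises since fewer arrays need to be in order. These settings were chosen after the data were seen. Of the members' 69 other probe sets, 58 had the sign of the brightest one in that comparison.

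The untreated pools carry replicate numbers in both genotypes, but the injected ones do not, and 2 pairs do not show pairing. Deviations of same-numbered arrays correlated at 0.12 over all probe sets and -0.23 over the members. With the replicate block 0 members were called. The median for untreated LN stayed at -0.013 by construction, since both genotypes hold the same replicate numbers. That median therefore cannot show whether the pools are paired. Between single arrays the members' 95% intervals reached as far as -0.94 for Cox7c and 0.79 for Cox4i2, both on dim probe sets. That of Uqcr10, with the largest difference after CFA, ran from -0.063 to 0.56. In the main version of the test, differences of the size seen could not be told from none there.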
